A study of Mus musculus with 6 samples.

Results

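Transcripts of 40 mouse genes for the synthesis, desaturation, elongation, activation and mitochondrial oxidation of fatty acids were followed in Th17 cells cultured with or without desIgf1, a shortened form of insulin-like growth factor 1 held only weakly by the proteins that bind the full hormone. The genes were fixed as a list of symbols, and all 40 matched 1 identifier each among the 39179 genes of the count files. Of these, 39 were abundant enough to be tested, among 13846 genes tested in all, and Me1 was not. Cultures with 30 ng/mL desIgf1 gave 3 RNA-seq libraries, and control cultures without it gave 3 more. Mice of both groups were C57BL/6 with a human CD2 reporter in Il17a, a Thy1.1 reporter in Ifng and a GFP reporter in Foxp3. Their naive CD4+ T cells from spleen were kept for 5 days with soluble anti-CD3 at 5 µg/mL, IL-6 at 20 ng/mL, TGF-β at 2.5 ng/mL and antibodies to IFN-γ and IL-4 at 10 µg/mL each, on splenocytes that had lost their CD4+ cells and been irradiated. RNA was taken from cells sorted for the Il17a reporter and against both other reporters, so the values describe reporter-positive cells, not whole cultures. The culture text lists desIgf1 for every library, whereas titles and design text name cultures that lacked it, and grouping here is by title.

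A dividing T cell builds membranes from fatty acids that it makes or takes up. Citrate leaving mitochondria is cleaved to acetyl-CoA, which is carboxylated to malonyl-CoA and joined into palmitate, and palmitate is then elongated and desaturated. The transcription factor SREBP, encoded by Srebf1 and Srebf2, is released from membranes by proteolysis and drives many of these genes and those of cholesterol synthesis, and insulin-like signalling through AKT and mTORC1 is known, in liver and other cells, to favour its release. Oxidation runs the other way. Fatty acids are joined to CoA, carried into mitochondria by the carnitine shuttle and shortened in repeated rounds, and malonyl-CoA blocks the entry step. Th17 cells are known to depend on fatty acid synthesis more than regulatory T cells do.

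Gene counts summed to 34567899 to 47929948 per library. T cell markers (Cd3e, Cd3g, Cd3d, Cd4 and Trac) summed to 3958 to 4513 CPM (counts scaled to a common library size) with desIgf1 and 3930 to 3965 CPM in controls. The 6 Th17 markers summed to 1695 to 1949 CPM with desIgf1 and 1203 to 1483 CPM in controls. Macrophage and monocyte markers summed to 9.51 to 14.1 CPM with desIgf1 and 4.07 to 11.8 CPM in controls over 6 genes, with Fcgr1 at 0. Dendritic cell markers gave 3.55 to 10.4 CPM with desIgf1 and 1.97 to 4.90 CPM in controls over 6 genes, with Xcr1 at 0, and B cell markers 1.23 to 1.82 CPM with desIgf1 and 1.45 to 3.81 CPM in controls over 6 genes. NK cell markers summed to 3.85 to 7.96 CPM with desIgf1 and 2.39 to 6.07 CPM in controls over 5 genes. CD8 T cell markers summed to at most 10.98 CPM with desIgf1 and at most 7.85 CPM in controls over 2 genes. Nearly all of that was Cd8b1, since Cd8a was at most 0.103 CPM with desIgf1 and at most 0.0286 CPM in controls. Neutrophil markers summed to at most 0.190 CPM with desIgf1 and at most 0.716 CPM in controls over 5 genes. Adipocyte markers, of a cell type rich in these enzymes, summed to at most 0.142 CPM with desIgf1 and at most 0.344 CPM in controls over 5 genes, with Cidec and Lep at 0. Both libraries numbered 3 stood apart from the other 4 along the leading axis of a principal component analysis (43.5% of variance). The part of the marker levels in the values below was not tested.

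Of the 39 tested genes 0 passed the test. This was edgeR's quasi-likelihood test with Benjamini-Hochberg adjustment over all 13846 genes, in which 0% of all genes passed, and the adjusted p-values of the 39 ran from 0.417 to 0.995. With the replicate number as a block 0 of the 39 passed, against 0.318% of all genes, with adjusted p-values from 0.0633. DESeq2 called 0 of the 39 and 1.44% of all genes, with its lowest adjusted p among the 39 at 0.0508 for Lpin1, and limma voom called 0 of the 39 and 0% of all genes. At an unadjusted p under 0.05, 4 of the 39 were higher with desIgf1 (Lpin1, Scd2, Scd1 and Acadl) and 0 were lower, against 4.75% and 3.42% of all genes. With the block these counts were 8 and 1, against 9.02% and 5.29% of all genes. In 6 of the 39 all 3 desIgf1 libraries lay above all 3 controls (Srebf1, Scd1, Scd2, Fads3, Lpin1 and Acadl), against 7.31% of all genes, and in 0 they lay below, against 6.18%. In 12 genes desIgf1 was above the control of the same number in all 3 numbers, against 20.9% of all genes, and in 3 it was below in all 3, against 17.2%. Fewer cells using a gene and less RNA per cell cannot be told apart in such libraries.

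Differences varied between the roles and within them, and none passed the test. The desaturases Scd1, Scd2 and Fads2 and the phosphatidate phosphatase Lpin1 had the largest log2 fold changes. The central enzymes Acly and Fasn and the enzymes of oxidation lay closer to equal levels, none past 0.36 in size. Other genes of acetyl-CoA supply and synthesis were at 0.40 (Acacb), 0.38 (Acss2) and 0.23 (Acaca), and the desaturase Fads1 was at 0.14. Control library 2 was the control most like the desIgf1 libraries for Scd1, Scd2, Fads2, Srebf1, Acly, Lpin1 and Acsl3.

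**Figure D1:**
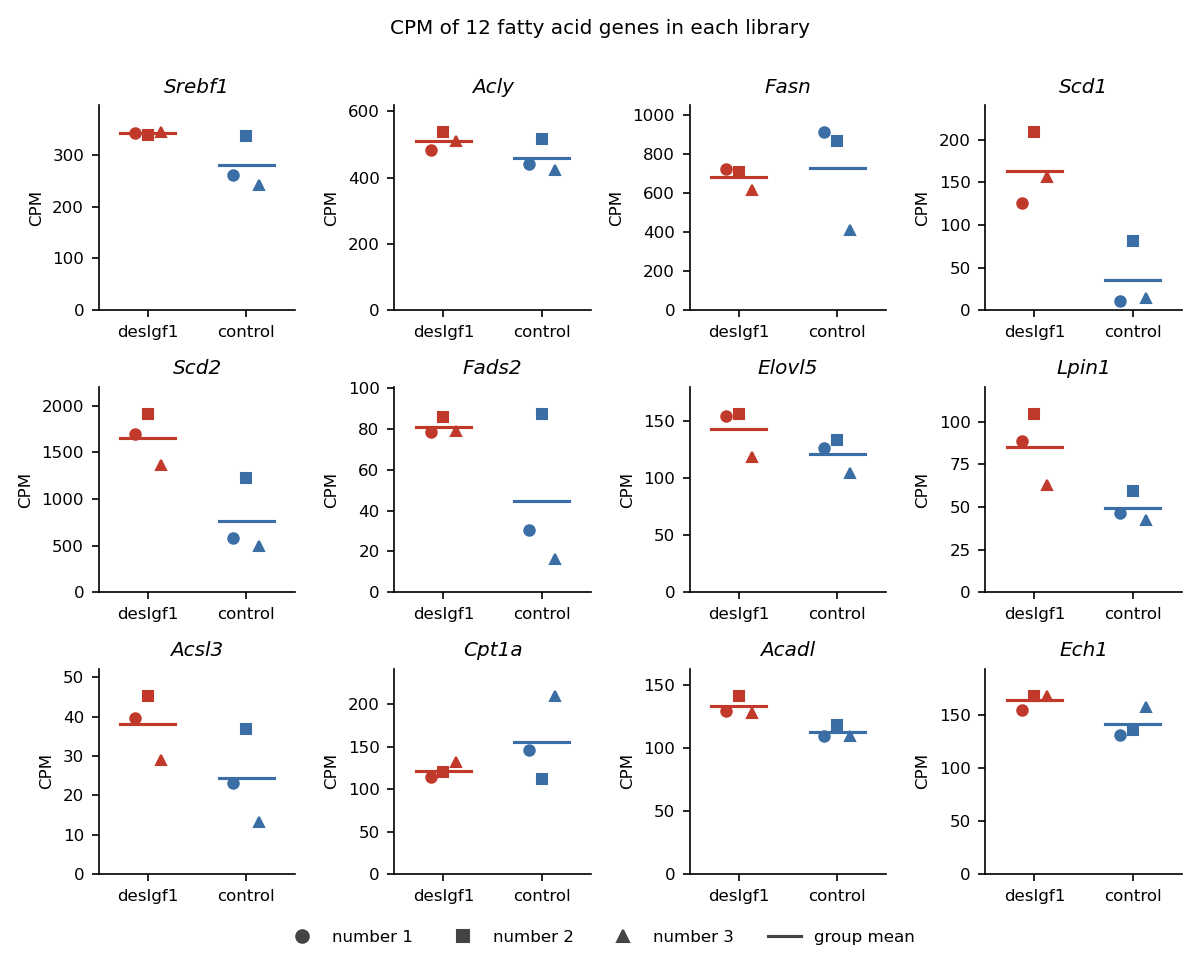
CPM of 12 fatty acid genes in each library, desIgf1 at the left and control at the right of each panel, with a symbol for each replicate number and a line at the mean of 3. Scd1, Scd2, Srebf1, Lpin1 and Acadl do not overlap between the groups, control library 2 is the highest control for Scd1 at 81.0 CPM, and Fasn is lowest in control library 3 at 409 CPM.

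Promoter windows from 250 bases before to 50 after the start, taken from RefSeq on GRCm38.p6, were found for 35 of the 40 genes. Scd1, Scd2, Fads1, Decr1 and Acaa2 are not among them. The windows of 4 members are printed, with Fads2 from synthesis, Acadl and Cpt1a from oxidation, and Lpin1 from neither. They are Lpin1 (chr12:16610917-16611216, minus strand), which had the smallest p, Fads2 (chr19:10101454-10101753, minus strand), Acadl (chr1:66863260-66863559, minus strand), the oxidation gene without overlap, and Cpt1a (chr19:3323051-3323350, plus strand), the oxidation gene with the lowest log2 fold change. Capitals mark a CCAAT box (CCAAT) or a GC box (GGGCGG) on either strand, and no marked stretches overlap.
Lpin1: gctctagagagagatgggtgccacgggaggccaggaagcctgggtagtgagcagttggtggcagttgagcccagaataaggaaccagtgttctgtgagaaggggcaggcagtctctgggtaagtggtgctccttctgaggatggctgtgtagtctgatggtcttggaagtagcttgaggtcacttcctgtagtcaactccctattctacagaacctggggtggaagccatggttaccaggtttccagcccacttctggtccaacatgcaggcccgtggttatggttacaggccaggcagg
Fads2: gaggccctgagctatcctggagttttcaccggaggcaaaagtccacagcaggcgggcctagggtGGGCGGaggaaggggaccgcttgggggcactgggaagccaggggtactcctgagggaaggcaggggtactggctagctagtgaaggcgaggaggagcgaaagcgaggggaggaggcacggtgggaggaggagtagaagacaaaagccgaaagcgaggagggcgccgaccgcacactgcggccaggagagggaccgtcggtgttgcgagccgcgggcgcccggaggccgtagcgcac
Acadl: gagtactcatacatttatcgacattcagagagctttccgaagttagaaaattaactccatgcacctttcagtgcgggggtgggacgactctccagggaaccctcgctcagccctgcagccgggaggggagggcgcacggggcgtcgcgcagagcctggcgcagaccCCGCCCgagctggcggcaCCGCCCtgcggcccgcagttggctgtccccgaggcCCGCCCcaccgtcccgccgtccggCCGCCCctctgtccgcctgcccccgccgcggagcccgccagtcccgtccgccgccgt
Cpt1a: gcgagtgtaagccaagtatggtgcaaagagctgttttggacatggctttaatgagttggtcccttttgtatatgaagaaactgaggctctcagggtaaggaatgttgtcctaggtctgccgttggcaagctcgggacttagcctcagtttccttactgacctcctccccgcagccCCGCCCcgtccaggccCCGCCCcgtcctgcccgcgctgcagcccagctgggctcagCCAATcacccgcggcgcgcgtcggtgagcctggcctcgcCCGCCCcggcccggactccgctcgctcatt
The Lpin1 window held none of the motifs searched, Fads2 held 1 GC box (bases 65 to 70 of the window), Acadl held 4 GC boxes, and Cpt1a held 3 GC boxes and a CCAAT box (bases 232 to 236). Over the enzymes of acetyl-CoA supply, synthesis, desaturation and elongation 8 of 12 matched genes had a CCAAT box and 7 had a GC box, and over the oxidation enzymes 5 of 15 had a CCAAT box and 12 had a GC box. Of all 32851 windows, 37.4% held a CCAAT box and 35.7% a GC box. A gene was counted if any of its windows held the motif, and Me1 and Elovl1 had more than 1 window. The shares of all windows count each window by itself, so these measures are unlike. A sterol regulatory element in the form TCACNCCAC was in 0 windows of either set and in 1.24% of all windows, and an E-box (CACGTG) in 1 synthesis gene, Elovl5, in 0 oxidation genes and in 7.15% of all windows. Among the members outside both sets, 1 of the 2 windows of Acsl1 held the sterol element and 1 of the 3 windows of Lpin2 held an E-box. Such matches describe letters in these windows and are no evidence of binding.

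Srebf1, which encodes SREBP-1, lies on chromosome 11 (60199089 to 60222581, minus strand, GRCm38). It was at 342, 338 and 343 CPM with desIgf1 (libraries 1 to 3) and at 261, 336 and 242 CPM in control libraries 1 to 3. The desIgf1 libraries were nearly equal, and control 2 lay just below them while controls 1 and 3 were lower. The log2 fold change was 0.29 ± 0.13 (SE, edgeR adjusted p = 0.622), and 0.30 ± 0.12 with the block (adjusted p = 0.346). Per length Srebf1 was among the more abundant members, at 60.5 ± 0.539 RPKM (CPM per kilobase of exon) with desIgf1 and 49.6 ± 8.82 RPKM in controls (SD, n = 3 each).

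Of the 6 genes for acetyl-CoA supply and fatty acid synthesis, 5 were tested and 0 passed, with a median log2 fold change of 0.23, and 4 of the 5 had a log2 fold change above 0. Acly, the ATP citrate lyase that makes acetyl-CoA in the cytosol, had the highest level per length, at 96.7 ± 5.00 RPKM with desIgf1 and 87.1 ± 9.55 RPKM in controls. Its CPM were 484, 537 and 510 in desIgf1 libraries 1 to 3 and 440, 517 and 422 in controls 1 to 3, so the groups overlapped (log2 fold change 0.15 ± 0.11, adjusted p = 0.703). Acacb, the acetyl-CoA carboxylase of the mitochondrial outer membrane, had the largest log2 fold change of the 5, 0.40 ± 0.44 (adjusted p = 0.814), at 1.70, 4.82 and 2.67 CPM with desIgf1 and 1.62, 2.13 and 3.24 CPM in controls. Per length it stood at 0.318 ± 0.166 RPKM with desIgf1 and 0.242 ± 0.0856 RPKM in controls. Its cytosolic counterpart Acaca, at 3.09 ± 0.222 RPKM with desIgf1 and 2.63 ± 0.491 RPKM in controls, gave 0.23 ± 0.15 (adjusted p = 0.673). Acss2, which makes acetyl-CoA from acetate, gave 0.38 ± 0.21 (adjusted p = 0.645).

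Fasn, the synthase that assembles palmitate, was named after its values were seen. It was at 720, 706 and 616 CPM with desIgf1 (libraries 1 to 3) and at 911, 867 and 409 CPM in controls 1 to 3. Controls 1 and 2 lay above every desIgf1 library and control 3 below every one. The log2 fold change was -0.10 ± 0.28 (adjusted p = 0.933), and it ran from -0.38 to 0.09 when 1 library was left out. Me1, the cytosolic malic enzyme that supplies NADPH, had 1 to 2 counts in each library and was below the filter.

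The 3 largest log2 fold changes among the 39 genes were those of desaturases. Scd1 makes monounsaturated fatty acids from palmitate and stearate and is a textbook SREBP target in mouse liver. On chromosome 19 (44394455 to 44407879, minus strand), it was at 125, 209 and 156 CPM with desIgf1 (libraries 1 to 3) and at 10.8, 81.0 and 13.9 CPM in controls (libraries 1 to 3). Here the lowest desIgf1 library was above the highest control, and within the controls number 2 was far above the others. The log2 fold change was 2.21 ± 0.76 (4.64-fold, adjusted p = 0.531), and 2.80 ± 0.47 with the block (adjusted p = 0.0976). Differences within numbers 1, 2 and 3 were 3.54, 1.37 and 3.48 on the log2 CPM scale. Without control library 2 the log2 fold change was 3.73, the largest of the 6 fits that left out 1 library, with an adjusted p of 0.0695.

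Scd2, the isoform that neighbours Scd1 (chromosome 19, 44293674 to 44306864, plus strand), was the most abundant member per length in the means over all libraries, at 304 ± 50.8 RPKM with desIgf1 and 141 ± 73.4 RPKM in controls. In CPM it was at 1697, 1915 and 1364 in desIgf1 libraries 1 to 3 and at 586, 1228 and 491 in controls (1 to 3). The groups did not overlap, and control 2 came closest, at 1228 against 1364 CPM in desIgf1 library 3. The log2 fold change was 1.11 ± 0.34 (2.16-fold, adjusted p = 0.497), and 1.22 ± 0.19 with the block (adjusted p = 0.0835). Scd2 exceeded Scd1 per length 7.82 to 12.1 times with desIgf1 and 13.6 to 48.7 times in controls, so Scd1 took a larger share of the pair in every desIgf1 library than in any control. Of the 50-base words in the longest Scd1 transcript 4.66% occur in transcripts of other annotated genes, and 4.01% of those of Scd2, so most of either transcript can be told from the other.

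The polyunsaturated desaturases were less uniform. Fads2, which starts the synthesis of long polyunsaturated fatty acids and was named after its values were seen, was at 78.8, 85.9 and 78.9 CPM with desIgf1 (libraries 1 to 3) and at 30.7, 87.5 and 16.5 CPM in controls (libraries 1 to 3). Here the desIgf1 libraries lay close together, while control 2 was the highest of all 6 and the other controls were the lowest. The fold change was 0.85 ± 0.54 in log2 (adjusted p = 0.673), and the differences within numbers were 1.36, -0.03 and 2.25. Fads1, the next enzyme of that route, gave 0.14 ± 0.20 (adjusted p = 0.858). Fads3 did not overlap between the groups, at 0.375, 0.356 and 0.537 CPM with desIgf1 and 0.307, 0.352 and 0.229 CPM in controls, but with 8 to 26 counts in a library (log2 fold change 0.51 ± 0.38, adjusted p = 0.705).

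Of the 4 elongases 0 passed, with log2 fold changes from -0.02 to 0.24. Elovl1, the most abundant of them per length at 39.1 ± 2.70 RPKM with desIgf1 and 39.7 ± 3.28 RPKM in controls, extends very long saturated chains. It was at 105, 100.2 and 115 CPM with desIgf1 (libraries 1 to 3) and at 109, 117 and 99.0 CPM in controls 1 to 3 (log2 fold change -0.02 ± 0.10, adjusted p = 0.962). Elovl5, which extends polyunsaturated chains, gave 0.24 ± 0.15 (adjusted p = 0.663). Its CPM were 155, 157 and 119 in desIgf1 libraries 1 to 3 and 127, 134 and 104 in controls 1 to 3, above the control in each number though the groups overlapped. Elovl6, which turns palmitate into stearate, gave 0.17 ± 0.28 and Elovl7 gave 0.11 ± 0.26.

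Lpin1, whose printed promoter window held none of the motifs searched, had the smallest p of the 39. Lipin 1 dephosphorylates phosphatidate to diacylglycerol, the branch point to storage lipid and phospholipids, and in mouse liver also acts in the nucleus as a partner of transcription factors. On chromosome 12 (16535669 to 16610966, minus strand), it was at 88.9, 105 and 62.7 CPM with desIgf1 (libraries 1 to 3) and at 46.3, 59.6 and 42.6 CPM in controls (libraries 1 to 3). Here the groups did not overlap, and the number 3 library was the lowest and the number 2 library the highest of each. The log2 fold change was 0.79 ± 0.21 (1.73-fold, adjusted p = 0.417), and 0.77 ± 0.11 with the block (adjusted p = 0.0633). Its differences within numbers 1, 2 and 3 were 0.94, 0.81 and 0.56. Lpin2 was at 12.9, 10.7 and 25.01 CPM with desIgf1 and 14.7, 14 and 30.3 CPM in controls, highest in both number 3 libraries and lower with desIgf1 in all 3 numbers (log2 fold change -0.27 ± 0.41, adjusted p = 0.859).

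Of the 5 acyl-CoA synthetases, which activate fatty acids for either fate, 2 had a log2 fold change above 0 and 3 below, with a median of -0.01. Acsl5, the most abundant per length at 55.3 ± 8.58 RPKM with desIgf1 and 61.1 ± 6.09 RPKM in controls, was at 267, 228 and 311 CPM with desIgf1 (libraries 1 to 3) and at 287, 330 and 273 CPM in controls 1 to 3 (log2 fold change -0.14 ± 0.14, adjusted p = 0.769). Acsl3, an enzyme of the endoplasmic reticulum and lipid droplets, had the largest difference. It was at 39.7, 45.3 and 29.1 CPM with desIgf1 (libraries 1 to 3) and at 23.0, 36.8 and 13.3 CPM in controls 1 to 3, higher in each number though the groups overlapped (0.64 ± 0.35, adjusted p = 0.643, and 0.73 ± 0.17 with the block, adjusted p = 0.167). Acsl1, named after its values were seen, was lower with desIgf1 in all 3 numbers though nearly equal in number 3, at 18.3, 17.95 and 16.5 CPM with desIgf1 and 25.1, 34.6 and 16.7 CPM in controls (-0.53 ± 0.25, adjusted p = 0.622). Acsl4 gave 0.11 ± 0.36 and Acsl6, at about 1 CPM, gave -0.01 ± 0.59.

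**Figure D2:**
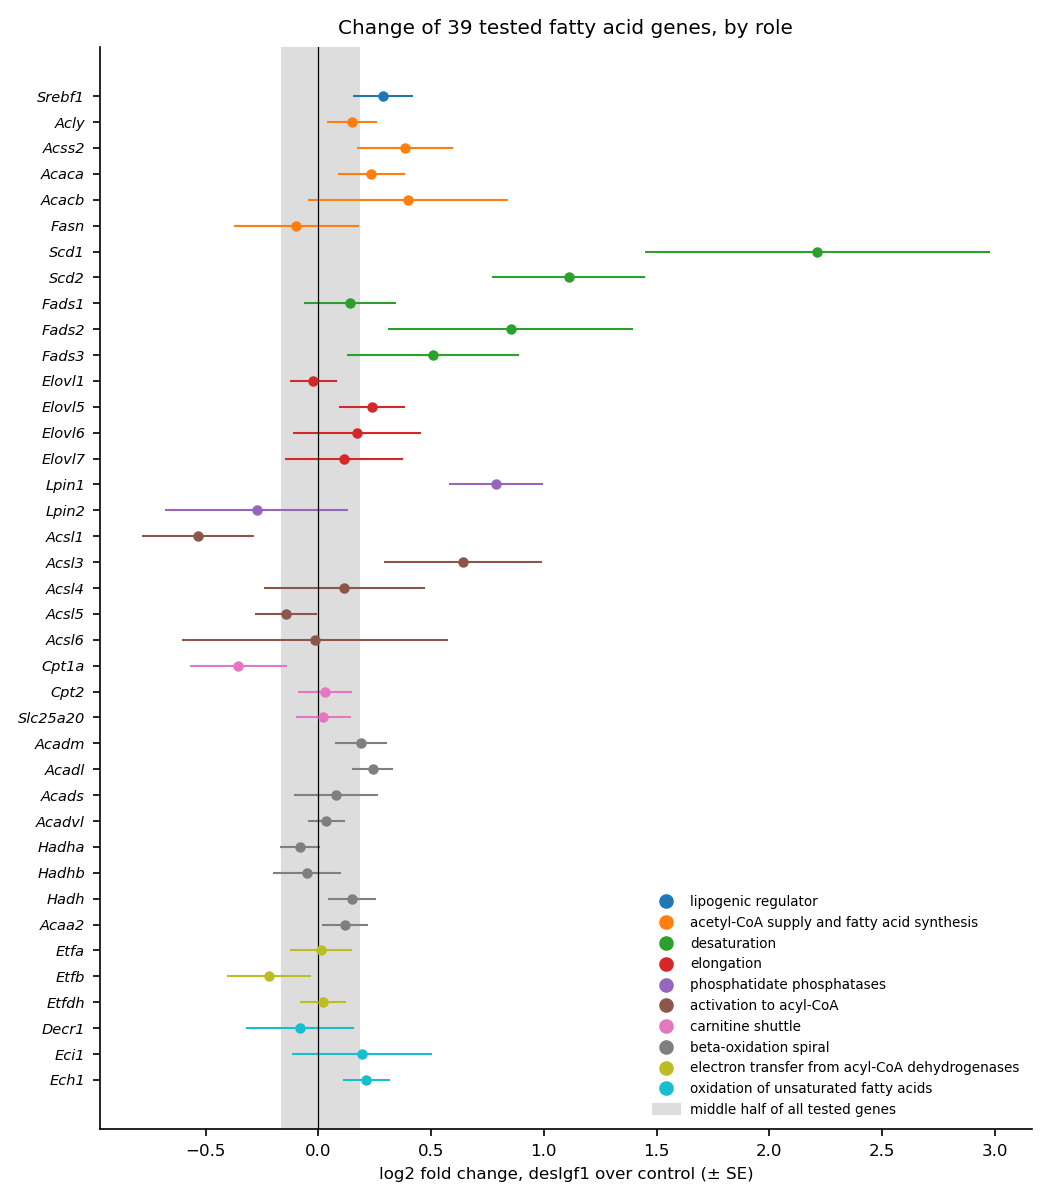
Log2 fold change of desIgf1 over control with its standard error for the 39 tested fatty acid genes, coloured by role, with n = 3 libraries in each group and a grey band from the lower to the upper quartile of all 13846 tested genes (-0.16 to 0.18). Scd1 (2.21), Scd2 (1.11), Fads2 (0.85) and Lpin1 (0.79) lie farthest to the right, and the 17 oxidation genes lie between -0.36 and 0.24.

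The carnitine shuttle showed no difference that passed the test. Cpt1a, the outer membrane enzyme that sets the rate of entry into mitochondria and is blocked by malonyl-CoA, was the most abundant of the 3 per length, at 15.9 ± 1.19 RPKM with desIgf1 and 20.4 ± 6.56 RPKM in controls. It was at 114, 120 and 132 CPM with desIgf1 (libraries 1 to 3) and at 146, 112 and 210 CPM in controls 1 to 3. Controls 1 and 3 were above all desIgf1 libraries and control 2 below them, so that the control highest for Scd1 was the lowest for Cpt1a. The desIgf1 libraries did not share this order, since library 1 was the lowest of them for both genes. The log2 fold change was -0.36 ± 0.22 (adjusted p = 0.661), the lowest among the oxidation genes, and -0.31 ± 0.16 with the block (adjusted p = 0.426). Cpt2, its inner membrane partner, gave 0.03 ± 0.12 (adjusted p = 0.953), and the carnitine-acylcarnitine carrier Slc25a20 gave 0.02 ± 0.12 (adjusted p = 0.971).

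Of the 8 genes of the oxidation spiral, 6 had a log2 fold change above 0 and 2 below, within -0.08 to 0.24. Acadl, the long-chain acyl-CoA dehydrogenase, was the most abundant per length, at 66.3 ± 3.73 RPKM with desIgf1 and 56.1 ± 2.38 RPKM in controls, and had the largest difference. On chromosome 1 (66830839 to 66863277, minus strand), it was at 129, 142 and 128 CPM with desIgf1 (libraries 1 to 3) and at 109.7, 118 and 109.9 CPM in controls (libraries 1 to 3). Here the groups did not overlap and the differences within numbers were 0.24, 0.26 and 0.22, a small but even gap (log2 fold change 0.24 ± 0.09, adjusted p = 0.561). The dehydrogenases for very long, medium and short chains gave 0.04 ± 0.08 (Acadvl), 0.19 ± 0.12 (Acadm) and 0.08 ± 0.18 (Acads). Hadh, the hydroxyacyl-CoA dehydrogenase, gave 0.15 ± 0.11 and the thiolase Acaa2 gave 0.12 ± 0.10.

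Hadha and Hadhb encode the subunits of one complex, the mitochondrial trifunctional protein, and gave log2 fold changes of -0.08 ± 0.09 and -0.05 ± 0.15. Per length Hadha exceeded Hadhb 11.03 to 14.9 times with desIgf1 and 12.3 to 13.7 times in controls. Of the 50-base words of the longest Hadhb transcript, 62.4% also occur in other annotated genes, mostly the processed pseudogene Gm13910, which held 1 to 10 counts, and 0% of those of Hadha do. Reads placed at several sites are not in the gene counts, so the level of Hadhb may be understated, and so may that of Acaca (52.6% shared words). Etfb shares 67.3% of its words with Gm45233, which overlaps it on the same strand, so sharing there does not mean several sites. How far this moves the levels was not tested.

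The electron transfer genes Etfa, Etfb and Etfdh, which pass electrons from the acyl-CoA dehydrogenases to the respiratory chain, had log2 fold changes of 0.01 ± 0.14, -0.22 ± 0.19 and 0.02 ± 0.10. Etfb was at 46.1, 43.5 and 68.4 CPM with desIgf1 (libraries 1 to 3) and at 56.3, 59.3 and 68.3 CPM in controls 1 to 3, nearly equal in number 3 and lower with desIgf1 in numbers 1 and 2. Among the auxiliary enzymes for unsaturated fatty acids Ech1 was the most abundant, at 71.7 ± 3.44 RPKM with desIgf1 and 61.8 ± 6.11 RPKM in controls. Its CPM were 155, 168 and 168 in desIgf1 libraries 1 to 3 and 131, 136 and 157 in controls 1 to 3, above the control in each number (log2 fold change 0.21 ± 0.10, adjusted p = 0.625). The dienoyl-CoA reductase Decr1 gave -0.08 ± 0.24 and the enoyl-CoA isomerase Eci1 gave 0.19 ± 0.31.

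Synthesis was then set against oxidation. The synthesis arm took the 15 enzymes of acetyl-CoA supply, fatty acid synthesis, desaturation and elongation, of which 14 were tested, and the oxidation arm took the 17 enzymes from the carnitine shuttle onward, all tested. The median log2 fold change was 0.24 for synthesis, with 12 genes above 0 and 2 below, and 0.03 for oxidation, with 12 above 0 and 5 below. Over all 13846 genes the median was -0.0052 and 49.1% were above 0. The medians differed by 0.20, and by 0.17 with Scd1 and Scd2 left out of the synthesis arm. The difference was not the same in the 3 numbers, at 0.22, -0.03 and 0.53 in numbers 1, 2 and 3. With Scd1 and Scd2 left out it was 0.20, -0.08 and 0.38 in numbers 1, 2 and 3. With all 14 tested synthesis enzymes, the difference was 0.09 without desIgf1 library 2, 0.12 without control library 3 and 0.33 without control library 2. Members of an arm are not replicates, so no test was made of this difference.

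**Figure D3:**
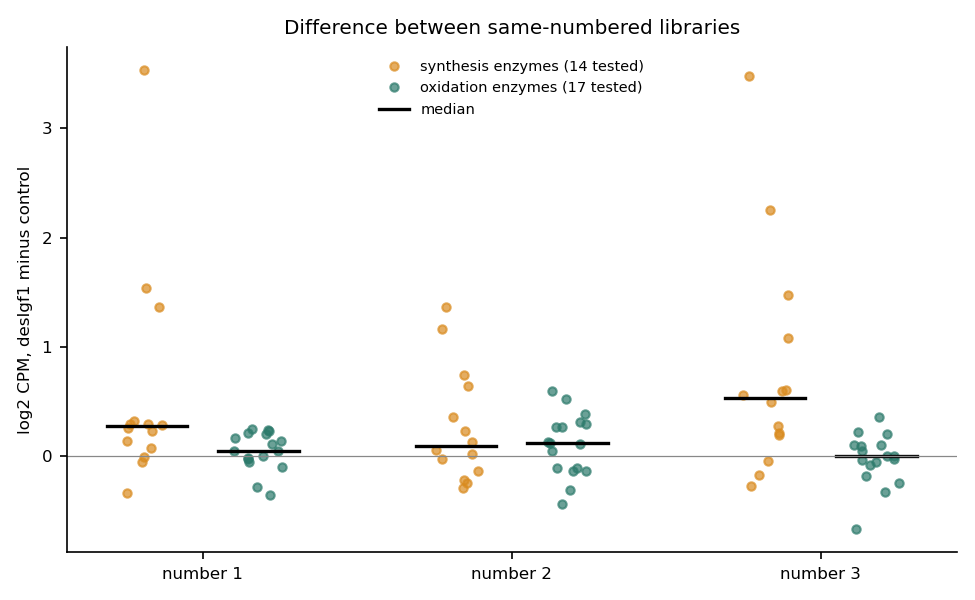
Difference in log2 CPM between the desIgf1 and the control library of the same number for each tested enzyme of synthesis (14) and oxidation (17), with the median as a bar. The synthesis medians are 0.27, 0.09 and 0.53 in numbers 1, 2 and 3, and the oxidation medians 0.05, 0.12 and 0.00 lie near zero.

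Summed levels were then compared, where abundant genes weigh most. Summed over its enzymes, synthesis stood at 636, 704 and 564 RPKM in desIgf1 libraries 1 to 3 and at 393, 562 and 303 RPKM in controls 1 to 3. Oxidation stood at 423, 449 and 473 RPKM with desIgf1 and at 411, 415 and 466 RPKM in controls. The ratio of synthesis to oxidation was thus 1.505, 1.57 and 1.19 with desIgf1 and 0.958, 1.35 and 0.650 in controls. Control 2 was higher than desIgf1 library 3. These ratios and the shares below rest on merged exon lengths, which exceed single transcripts unevenly. Merged exons spanned 8730 bases for Hadha, against 4017 in its longest coding transcript, and 5464 against 5455 for Scd2. Whether a ratio lies above or below 1 may depend on that choice, and other lengths were not tried. Scd1 and Scd2 made up 52.8, 55.9 and 49.95% of the synthesis sum with desIgf1 and 27.8, 42.9 and 30.6% in controls. Without them the ratio was 0.710, 0.693 and 0.597 with desIgf1 and 0.692, 0.772 and 0.451 in controls, with the groups overlapping.

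**Figure D4:**
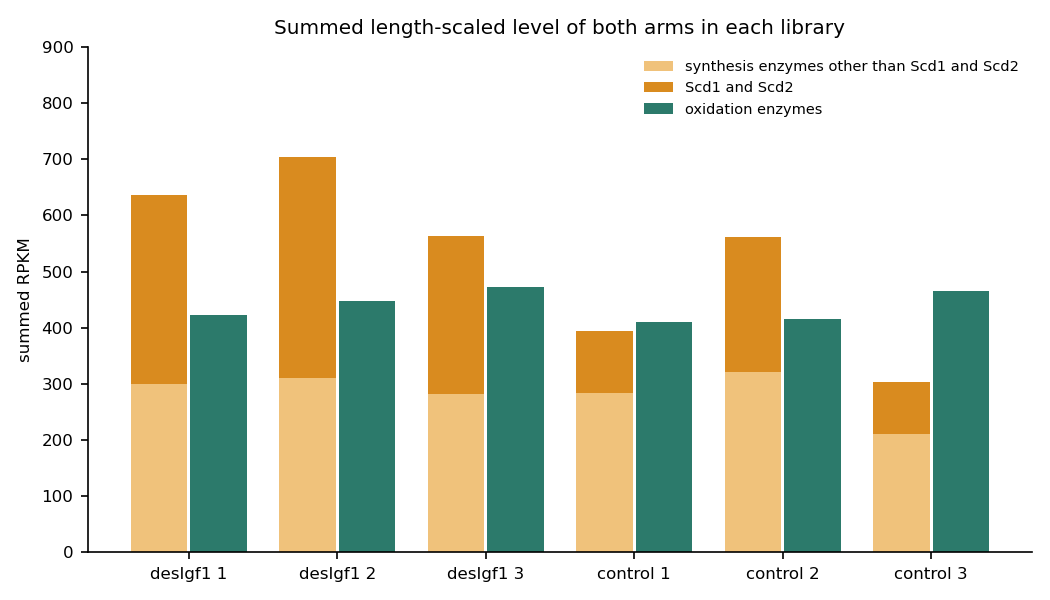
Summed RPKM of the synthesis enzymes (stacked, Scd1 and Scd2 on top of the other 13) and of the 17 oxidation enzymes in each library. The part from Scd1 and Scd2 is 336, 393 and 282 RPKM in the desIgf1 libraries and 109, 241 and 92.7 RPKM in the controls, while the oxidation bars stay between 411 and 473 RPKM.

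How many members passed in the paired fit depended on which number was left out. With the block and without both libraries of number 2, 8 of the 39 passed, where 4.42% of all genes did (2.41% higher and 2.01% lower). Of these 7 rose with desIgf1, namely Scd1 (log2 fold change 3.51 ± 0.13, adjusted p = 1.63e-12), Scd2 (1.51 ± 0.10), Fads2 (1.80 ± 0.21), Srebf1 (0.45 ± 0.10), Lpin1 (0.75 ± 0.13), Acsl3 (0.96 ± 0.15) and Acsl4 (0.42 ± 0.11), and Cpt1a fell by 0.52 ± 0.11 (adjusted p = 0.00821). Without number 3, 3 of the 39 passed, where 7.64% of all genes did (4.68% higher and 2.97% lower), with Scd2 (1.09 ± 0.21, adjusted p = 0.0133) and Lpin1 (0.88 ± 0.12, adjusted p = 0.00317) higher and Acsl1 lower (-0.70 ± 0.16, adjusted p = 0.0297). Without number 1, 0 of the 39 passed, where 0.513% of all genes did. These fits use 4 libraries with 1 residual degree of freedom.

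Other genes of these pathways were read from 8 lists. In 7 of them, all but cholesterol synthesis, 0 genes passed with or without the block. Of the SREBP maturation and lipogenic regulator list 12 of 13 genes were tested, with a median log2 fold change of 0.04, 6 above 0 and 6 below. In it Srebf2, which encodes the SREBP form that mainly drives cholesterol genes, was at 655, 753 and 732 CPM with desIgf1 (libraries 1 to 3) and at 487, 629 and 583 CPM in controls 1 to 3 (0.33 ± 0.12, adjusted p = 0.561). The groups did not overlap. Insig1, the sterol-sensitive anchor of SREBP and itself a target of it, was at 124, 168 and 111 CPM with desIgf1 and 61.7, 129 and 57.9 CPM in controls, again with control 2 apart from the other controls (0.70 ± 0.32, adjusted p = 0.622).

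Cholesterol synthesis genes had the highest median of the 8 lists, 0.56 over 20 genes, with 19 above 0, against 49.1% of all genes. In 11 of the 20 every desIgf1 library lay above all controls, against 7.31% of all genes. Of the 20, 0 passed in the main test and 3 under DESeq2, where 0% and 1.44% of all genes passed. With the block 4 rose (Hsd17b7, Mvd, Msmo1 and Hmgcs1), against 0.318% of all genes in either direction. The smallest p-values were those of Hsd17b7 (43.2, 68.7 and 68.4 CPM with desIgf1, 21.7, 34.1 and 35.4 CPM in controls; 0.98 ± 0.24, adjusted p = 0.396, blocked 0.0332) and Mvd (57.8, 79.7 and 60.3 CPM with desIgf1, 29.3, 48.1 and 29.7 CPM in controls; 0.89 ± 0.23, adjusted p = 0.402, blocked 0.0475). Msmo1 was at 65.1, 102 and 57.7 CPM with desIgf1 and 30.9, 51.8 and 30.96 CPM in controls (0.99 ± 0.28, adjusted p = 0.452, blocked 0.0332). Hmgcs1 was at 193, 284 and 158 CPM with desIgf1 and 85.8, 159 and 70.8 CPM in controls (1.01 ± 0.34, adjusted p = 0.527, blocked 0.0390), with control 2 just above desIgf1 library 3. Relative to each gene's mean, the median log2 CPM of this list was 0.20, 0.49 and 0.24 in desIgf1 libraries 1 to 3 and -0.51, 0.14 and -0.56 in controls (1 to 3). The 5 desaturases stood at 0.56, 0.68 and 0.56 in desIgf1 libraries and at -0.80, 0.33 and -1.13 in controls, and the synthesis arm at 0.17, 0.20 and 0.09 and at -0.14, 0.14 and -0.45. In all 3, control 2 was the highest control. The oxidation arm ran from -0.05 to 0.08 with desIgf1 and from -0.07 to 0.08 in controls, highest in both number 3 libraries.

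**Figure D5:**
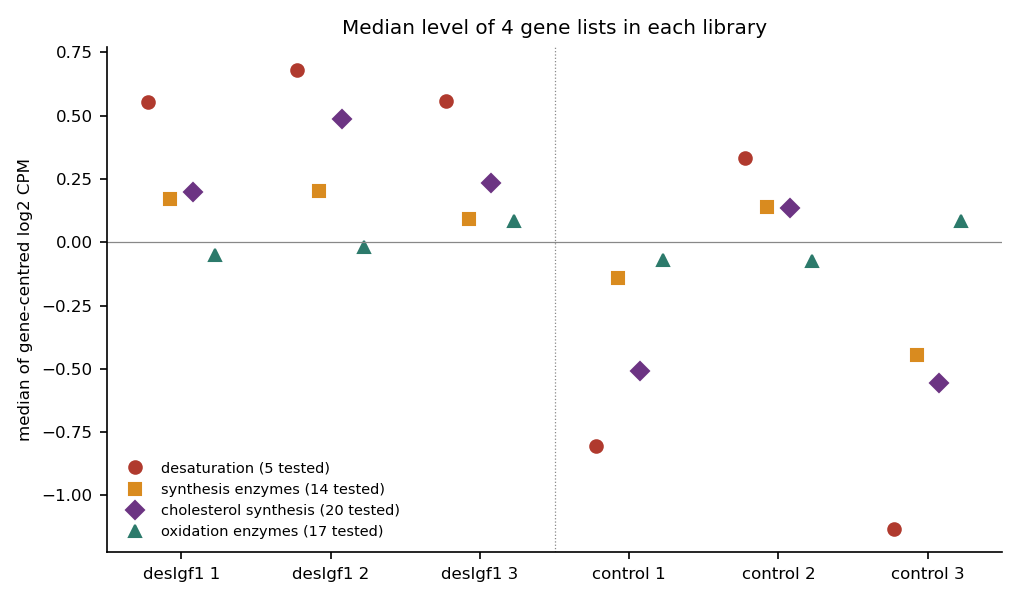
Median over genes of log2 CPM centred on each gene's mean, in each library, for the desaturases (5 genes), the synthesis enzymes (14), cholesterol synthesis (20) and the oxidation enzymes (17). The desaturases are at 0.56 to 0.68 with desIgf1, and at -0.80, 0.33 and -1.13 in controls 1 to 3, and the oxidation enzymes stay within 0.09 of zero in all 6 libraries.

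Among glycerolipid and lipid droplet genes (18 of 19 tested, median 0.14), Dgat1, which makes triacylglycerol from the product of the lipins, was at 402, 540 and 226 CPM with desIgf1 (libraries 1 to 3) and at 221, 227 and 148 CPM in controls 1 to 3 (0.97 ± 0.31, adjusted p = 0.510, blocked 0.0733). It was higher in each number, though desIgf1 library 3 stood just under control 2. Plin2, a coat protein of lipid droplets, was at 90.1, 109.7 and 93.0 CPM with desIgf1 and 71.4, 71.5 and 84.9 CPM in controls, with no overlap (0.36 ± 0.12, adjusted p = 0.527). In the uptake and binding list (10 of 13 tested, median 0.22), the fatty acid transporter Slc27a1 was at 53.6, 53.7 and 46.1 CPM with desIgf1 and 40.3, 35.8 and 45.1 CPM in controls (0.34 ± 0.13, adjusted p = 0.560). Partners of synthesis and elongation (15 of 21 tested) had a median of 0.09. There Cyb5a, the cytochrome b5 that feeds electrons to desaturases, was at 185, 184 and 194 CPM with desIgf1 and 155, 120 and 151 CPM in controls (0.40 ± 0.12, adjusted p = 0.463). The dehydratase gene Hacd3 was at 129, 130.4 and 121 CPM with desIgf1 and 117, 99.9 and 109.7 CPM in controls, with no overlap (0.22 ± 0.10, adjusted p = 0.608).

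The 3 lists on the side of oxidation had medians from -0.05 to 0.08. PPAR and AMPK control genes (14 of 18 tested) had a median of -0.05, and the smallest p-values there were those of 2 genes for AMPK subunits. Prkag1 was at 101, 99.3 and 117 CPM with desIgf1 and 116, 126 and 122 CPM in controls (-0.19 ± 0.10, adjusted p = 0.634). Prkab2 was at 30.8, 34.0 and 25.9 CPM with desIgf1 and 24.5, 28.7 and 21.6 CPM in controls (0.28 ± 0.16, adjusted p = 0.646). Both overlapped between the groups. Other mitochondrial acyl-CoA enzymes (18 of 18 tested) had a median of 0.08. Eci2, another enoyl-CoA isomerase, was at 76.7, 89.7 and 81.2 CPM with desIgf1 and 76.3, 71.7 and 73.1 CPM in controls, with no overlap (0.16 ± 0.10, adjusted p = 0.661). Acadsb, a dehydrogenase for branched short chains, was at 32.8, 35.9 and 30.6 CPM with desIgf1 and 29.2, 24.8 and 31.8 CPM in controls (0.21 ± 0.13, adjusted p = 0.668). Peroxisomal oxidation genes (13 of 16 tested) had a median of 0.06. In that list Ehhadh, the peroxisomal bifunctional enzyme, was at 10.8, 14.2 and 13.6 CPM with desIgf1 and 9.32, 9.90 and 9.59 CPM in controls (0.43 ± 0.16, adjusted p = 0.571), with no overlap. Decr2, the peroxisomal dienoyl-CoA reductase, was at 30.9, 31.2 and 31.88 CPM with desIgf1 and 24.95, 21.3 and 31.93 CPM in controls (0.27 ± 0.16, adjusted p = 0.660), nearly equal in number 3.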

How the data were processed

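RNA was measured in 3 desIgf1 and 3 control libraries from a kit that keeps strand, per the labels. The deposited values are whole-number counts for Ensembl genes, without normalization. The submitters' processing notes name STAR 2.5.3, HTSeq 0.7.2, Trim Galore 0.4.5, SAMtools 0.1.18, R 3.4.3 and DESeq2 1.18.1, with build GRCm38 (mm10). Annotation release and strand setting: not given in the sources used here. Reads of members with overlapping antisense genes, such as Acss2, Acsl1 and Acadvl, are therefore uncertain. Entries not placed uniquely (46.4 to 48.7%) are missing from the gene counts, and summary lines that name no gene (no feature 13.5 to 15.7% and ambiguous 0.712 to 0.761% of unique reads) were dropped before library sizes were taken.

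Symbols, coordinates and exon lengths were read from GENCODE M21, also GRCm38, for 37607 of 39179 identifiers. The test was edgeR 4.0.16 under R 4.3.3, with TMM factors, the filterByExpr filter at a minimum count of 10, a robust quasi-likelihood fit on group alone, and Benjamini-Hochberg adjustment over all tested genes at a threshold of 0.05. The standard error is the log2 fold change divided by the square root of F. CPM use TMM factors, and RPKM divide them by the length of all annotated exons merged, which understates genes with rarely used exons. Centred log2 CPM and differences within numbers used a prior count of 2. Alternatives were a replicate block, DESeq2 1.42.0, its size factors in edgeR, limma 3.58.1 voom, no filter on low counts, and libraries left out. Libraries that share a number deviated together from their group means (correlations of 0.59, 0.32 and 0.55 for numbers 1, 2 and 3). The numbers were therefore taken as pairs in the block and in the differences within numbers, a choice the data made and no label states. The main test, on group alone, did not use them. No label tells whether the libraries are separate cultures or animals, and p-values then cover only the spread among the 6. Libraries within a group were not copies of each other (chi-square per degree of freedom 40.5 to 130). Members, lists and tests were chosen with earlier results of these data known. Values in every library are given by a rule, for members whose groups do not overlap and for the member of each role with the largest difference or the highest RPKM, and for the 2 genes with the smallest p in each other list and any that passed with the block. A gene that this rule names in 1 list is not reported here. Others given in full (Fasn, Fads2, Acsl1, Lpin2) were chosen after their values were seen. Protein sequences were not used here.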

Additional observations from a re-analysis of the deposited data

How the results depend on the processing

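No fatty acid gene passed under DESeq2, DESeq2 size factors, limma voom, no filter on low counts, any fit that left out 1 library, or the replicate block with all libraries. With the replicate block 44 genes of all tested passed, DESeq2 called 199 and no filter on low counts gave 16, against 0. The replicate block without numbers 1, 2 and 3 gave 72, 620 and 1069 genes and 0, 8 and 3 fatty acid genes, with 1 residual degree of freedom. The median of the oxidation arm ran from -0.013 (without desIgf1 library 3) to 0.11 (without control library 3) when 1 library was left out, and those of the synthesis arm and of the difference kept their sign. Among single genes, Acsl6 was at 0.073 with the replicate block, 0.17 with voom and 0.66 with the block without number 2. With the block, dropping number 1 gave 0.15 for Fasn, -0.024 for Cpt2 and -0.021 for Etfdh. Dropping number 2 gave -0.11 for Acacb, 0.13 for Fasn, 0.079 for Elovl1, 0.042 for Acsl5, -0.026 for Slc25a20, -0.11 for Acads and -0.0035 for Acadvl. Dropping number 3 gave 0.0498 for Hadhb, -0.16 for Etfa, -0.016 for Etfdh and 0.10 for Decr1. Leaving out 1 library gave ranges that cross 0 for Acacb (-0.089 to 0.71), Fasn (-0.38 to 0.094), Fads1 (-0.047 to 0.38), Elovl1 (-0.10 to 0.034), Elovl6 (-0.098 to 0.34), Lpin2 (-0.76 to 0.18), Acsl4 (-0.19 to 0.44), Acsl6 (-0.55 to 0.40), Cpt2 (-0.026 to 0.079), Slc25a20 (-0.064 to 0.11), Acads (-0.080 to 0.28), Etfa (-0.12 to 0.12), Etfdh (-0.031 to 0.091), Decr1 (-0.25 to 0.22) and Eci1 (-0.0100 to 0.60). The cause was not tested. Groups of 3 libraries limit the precision of every value, and Fads3 also rests on 8 to 26 counts a library.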
